A study of Mus musculus with 18 samples.

Results

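The genes described here build and run the mitotic apparatus: the CDK1 kinase with its cyclins, the spindle checkpoint, the Aurora and Polo kinases, the kinetochore, the spindle motors, the cytokinesis machinery, condensin and the enzymes that start anaphase. A list of 46 such genes was matched by symbol to the platform annotation of the arrays. Of these, 45 had a probe set that carried no other gene symbol, out of 18193 genes so named. Ccnb1 was not matched and is not analysed here. The 45 genes were measured by 102 probe sets, and all 45 passed the filter on low values that left 12252 genes for the tests.

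RNA came from mouse cumulus cells, a kind of granulosa cell that encloses the oocyte of an antral follicle, on 18 arrays with 1 array per sample. Cumulus-oocyte complexes were cultured intact, as oocyte-free complexes from which the oocyte had been taken out, or as oocyte-free complexes together with added oocytes (cocultures). Each of these was cultured without and with estrogen (E2), which gives 6 groups of 3 arrays. All samples were cultured female cells, and the labels give no strain, age, dose or culture time and leave unsaid whether replicates are different animals or cultures. The p-values therefore reflect only how much the arrays of a group vary, which may be technical variation.

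Several limits of the arrays touch the oocyte-free groups and precede every result. The title of replicate 1 of the oocyte-free group with estrogen names estrogen, while its source name and treatment label do not. The title was followed. The array names fall into 3 series of 13, 2 and 3 arrays, and all 3 oocyte-free arrays without estrogen lie outside the series of 13. In that group replicate 3 had an interquartile range of 2.53 on the log2 scale, against 2.69 to 3.05 on the other arrays. Marker genes of the other cells of the follicle were read on the same arrays. Of 22 oocyte markers measured, 7 passed the filter on low values, and the zona pellucida genes Zp1, Zp2 and Zp3 lay between 4.01 and 5.86 on the 18 arrays, beside array medians of 5.51 to 5.71. Replicate 2 of the coculture without estrogen read higher than the other arrays for the oocyte genes Ooep (7.46), Nlrp5 (6.40) and Zp3 (5.86). That array had the second narrowest range, 2.69, and shares its array series with replicate 3 of the oocyte-free group. Over the 22 oocyte markers these arrays had the highest means, 5.62 and 5.44. The part of these markers in the results below was not tested.

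Cells express most mitotic genes in bursts: transcription rises in late S phase and G2, peaks as the spindle forms and drops after division. Many of these promoters share a CCAAT box, bound by the factor NF-Y, and a TTTGAA element bound by the MuvB complex, which represses them in resting cells and, joined by B-MYB and FOXM1, activates them in G2. Cumulus cells of antral follicles divide, and the oocyte is known to promote that growth through secreted factors of the TGF-beta family. In RNA from a whole sample, fewer dividing cells and less mitotic mRNA per cell cannot be told apart.

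Across the 45 genes the oocyte-free arrays without estrogen stood apart from all others. The mean log2 level over the 45 genes was 8.49, 8.46 and 8.66 on the intact arrays, 6.46, 6.33 and 6.28 on the oocyte-free arrays and 8.37, 8.13 and 8.68 on the coculture arrays. With estrogen it was 8.65, 8.70 and 9.07 in intact complexes, 7.53, 7.46 and 7.06 in oocyte-free complexes and 8.32, 8.64 and 8.55 in cocultures. The 6 oocyte-free arrays were thus below the other 12, and those without estrogen below those with it. Of the 45 genes, 42 had their lowest group mean in oocyte-free complexes without estrogen and 3 in oocyte-free complexes with it. The highest group mean was that of intact complexes with estrogen for 40 genes.

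**Figure D1:**
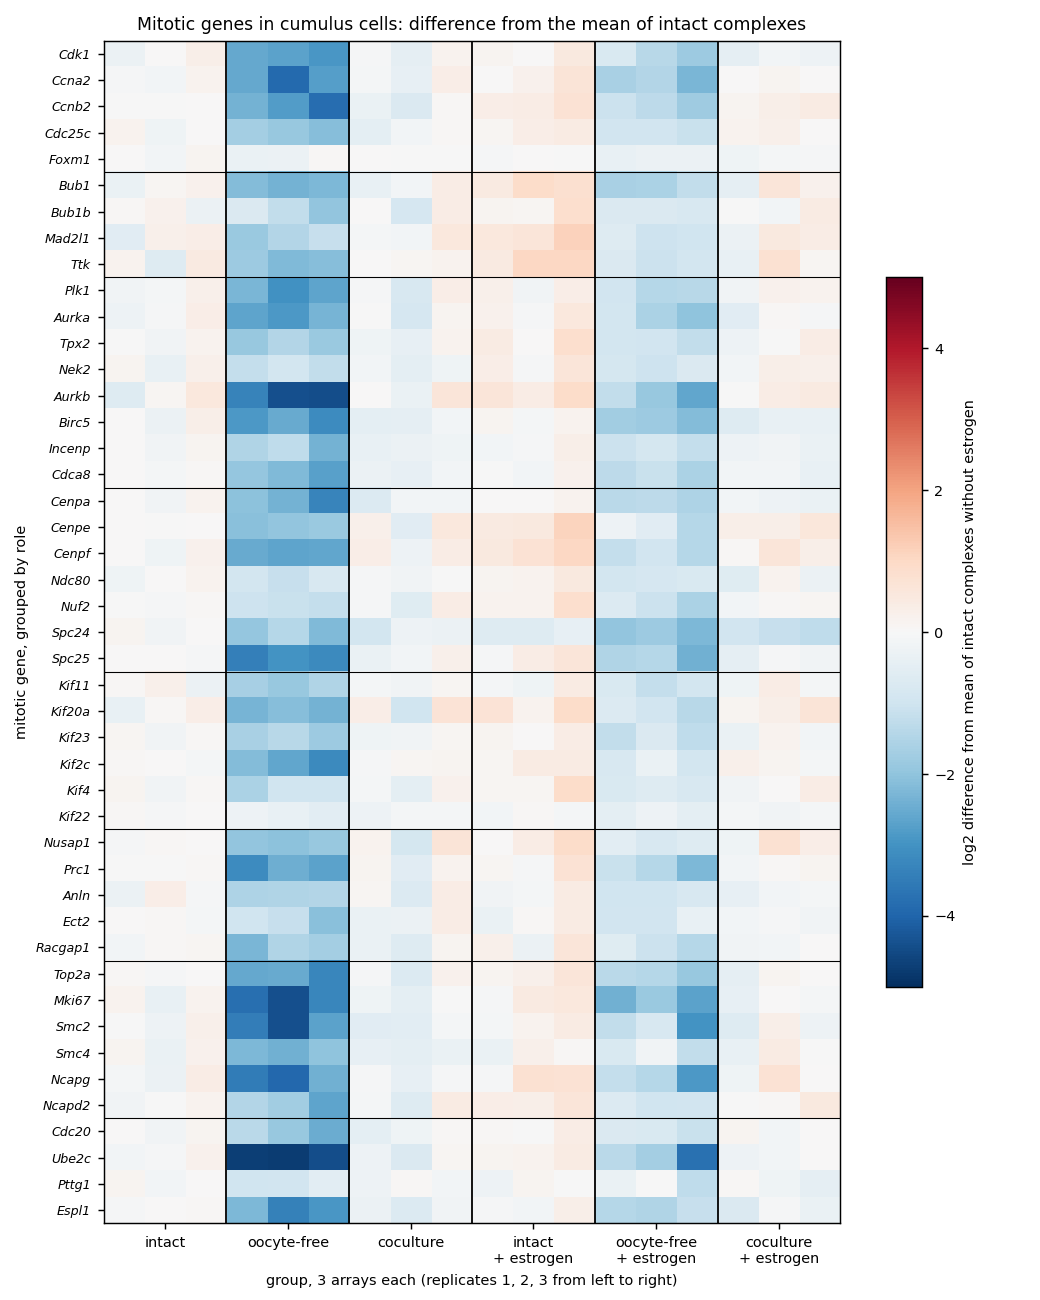
Log2 difference of each of the 45 mitotic genes (rows, grouped by role) on each of the 18 arrays (columns, 6 groups of 3) from the mean of the 3 intact arrays without estrogen. Blue is lower and red is higher, and the oocyte-free columns without estrogen are the darkest blue for most rows, from -4.64 for the group mean of Ube2c to -0.18 for Foxm1.

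Removal of the oocyte without estrogen lowered 44 of the 45 genes, where 20.7% of all tested genes were called lower. A gene is called where limma's Benjamini-Hochberg adjusted p over all tested genes is under 0.05. The median difference of the 45 genes was -2.06, against 0.01 for all genes tested, and 41 genes fell at least 2-fold and 23 at least 4-fold. In 44 of the 45 genes the 3 oocyte-free values did not overlap the 3 intact ones, which was the case for 45.8% of all tested genes. The count was 40 with the array series as a term in the model, where Kif22, Kif4, Nuf2 and Pttg1 were not called, and 43 without the array of the conflicting label and the one of narrow range. A value within an array series cannot be given, since none contains the intact and the oocyte-free group.

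With estrogen, removal lowered 43 genes, where 17.3% of all tested genes were called lower. The median difference was -1.42, against -0.05 for all genes, and 36 genes fell at least 2-fold and 7 at least 4-fold. Within the series of 13 arrays, which holds 3 intact and 2 oocyte-free arrays with estrogen, the median was -1.26 and all 45 means were lower. The fall was the larger without estrogen in 40 of the 45 genes. Tested gene by gene as an interaction, the difference between these falls was called for 4 genes, which are described below.

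Adding oocytes to oocyte-free complexes without estrogen raised 43 genes, where 19.8% of all tested genes were called higher, with a median of 2.00 against 0.02 for all genes. With estrogen it raised 40 genes, where 14.2% were called higher, with a median of 1.08 against 0.03. These comparisons share the oocyte-free arrays with those of removal and are not independent of them. The background shares depend on the scaling: with each array centred on its median, 16.6% of all genes were called higher and 18.0% lower without estrogen, against 13.4% called lower before, and 12.2% higher and 13.8% lower with it, against 10.4% lower before. That centring moved the median of all genes from 0.02 to -0.09 without estrogen, and 42 and 39 of the mitotic genes were called higher. Within the array series that holds 1 coculture and 1 oocyte-free array without estrogen, 44 genes were higher in the coculture, with a median of 1.98. Within the series of 13 arrays the median with estrogen was 0.99.

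Cocultures and intact complexes were compared directly. Without estrogen none of the 45 genes was called by limma, where 0.00816% of all tested genes were. At an unadjusted p under 0.05, 1 gene was lower, where 5.98% of all genes passed that limit in either direction. With estrogen the count was again 0 of 45, where 0% of all genes were called, and 7 genes were lower at an unadjusted p under 0.05, where 2.82% of all genes passed. The medians of the 45 genes were -0.13 and -0.28, and the differences ranged from -0.49 to 0.16 without estrogen and from -0.67 to 0.00 with it. The 95% intervals of the fit ran from -0.61 to 0.38 for Cdk1 and from -0.76 to 0.04 for Birc5 without estrogen. Missing the threshold does not show that the levels were equal. Without estrogen the lowest difference was that of Spc24, a subunit of the NDC80 complex, at -0.49 (SE 0.20), and the highest that of the centromere gene Cenpf at 0.16 (SE 0.20). With estrogen the lowest was that of the checkpoint kinase gene Ttk at -0.67 (SE 0.27), and the highest that of Smc4 at 0.00 (SE 0.24). Within the series of 13 arrays the median without estrogen was 0.00 and that with estrogen -0.28.

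**Figure D2:**
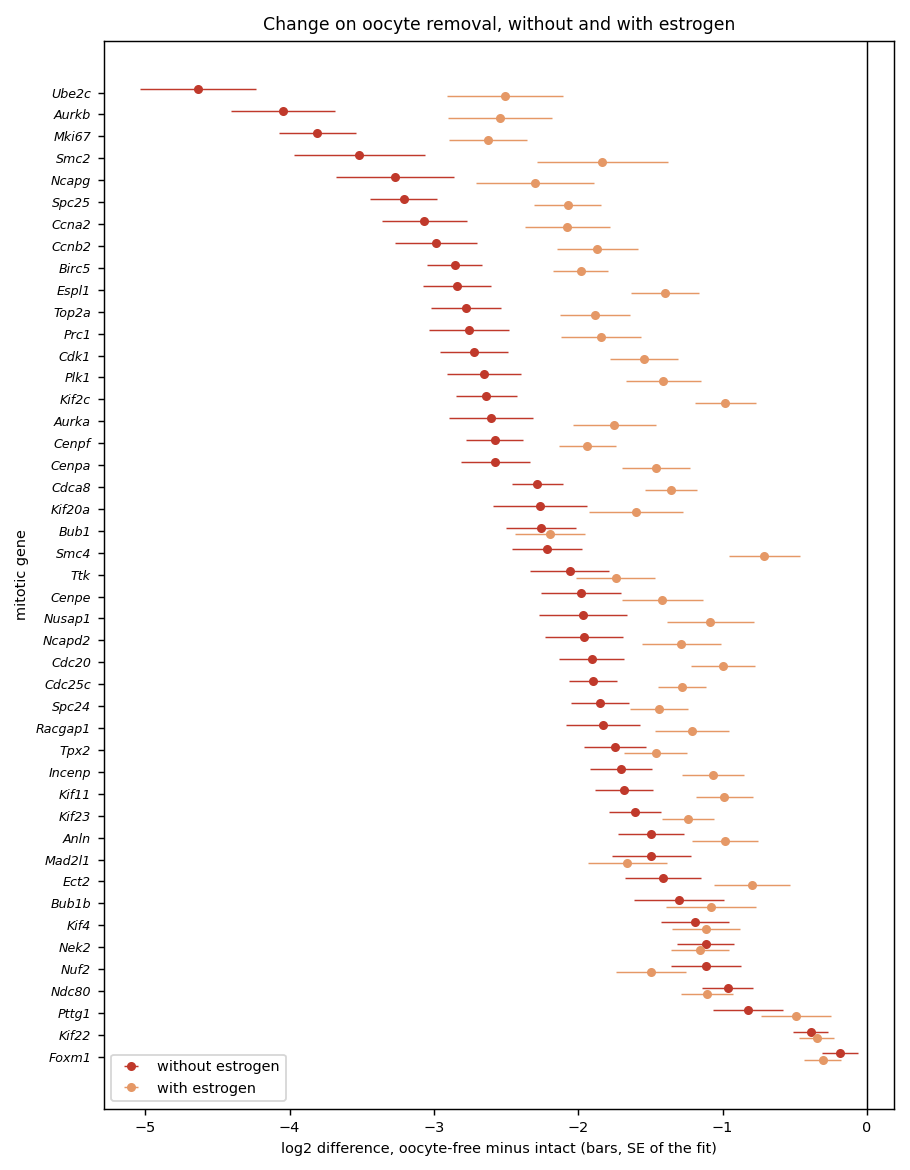
Log2 difference of oocyte-free minus intact complexes for the 45 mitotic genes, without estrogen (dark red) and with it (orange), with bars of 1 SE of the fit, ordered by the difference without estrogen. All points lie left of 0, and the orange point lies nearer to 0 than the red for 40 genes; Ube2c is at -4.64 and -2.51.

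Promoter sequences of members show the letters that such genes are known to share. RefSeq windows of the assembly GRCm38.p6 were at hand for 36 of the 45 genes, and the 250 bases before the annotated start were searched for 4 motifs on both strands. The CCAAT motif was found in 28 of 36 windows, 77.8%, and in 34.5% of all 27025 promoter windows. The TTTGAA motif was found in 14, 38.9%, against 16.3% of all windows and 10.0% of those of genes tested here. Both were found in 13, 36.1%, against 5.73%. The E2F-type letters TTTGGCGC were found in 1 window and TTTCCCGC in 0, against 0.437% and 0.929% of all windows. Ube2c, Mki67, Cdk1 and Ccnb2, which hold both motifs, and Nuf2 and Ndc80, which hold neither, were chosen after their values were seen, as examples of large and small changes. Their 250 upstream bases follow, 5′ to 3′ on the gene's strand, with both motifs, on either strand, in capitals.
Ube2c: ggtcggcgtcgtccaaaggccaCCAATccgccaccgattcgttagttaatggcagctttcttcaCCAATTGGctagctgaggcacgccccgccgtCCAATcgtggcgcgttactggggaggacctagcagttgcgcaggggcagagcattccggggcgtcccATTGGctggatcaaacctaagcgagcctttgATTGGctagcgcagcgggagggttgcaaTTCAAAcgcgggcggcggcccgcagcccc
Mki67: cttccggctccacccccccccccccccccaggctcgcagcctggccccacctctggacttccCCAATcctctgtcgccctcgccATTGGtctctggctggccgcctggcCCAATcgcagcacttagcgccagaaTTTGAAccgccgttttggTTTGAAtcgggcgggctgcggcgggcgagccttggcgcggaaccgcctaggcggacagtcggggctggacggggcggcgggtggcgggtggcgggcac
Cdk1: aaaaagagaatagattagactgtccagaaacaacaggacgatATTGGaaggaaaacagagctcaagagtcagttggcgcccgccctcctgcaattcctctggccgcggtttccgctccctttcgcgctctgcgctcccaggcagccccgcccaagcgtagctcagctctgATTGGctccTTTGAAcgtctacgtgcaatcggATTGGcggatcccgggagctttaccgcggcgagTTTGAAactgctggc
Ccnb2: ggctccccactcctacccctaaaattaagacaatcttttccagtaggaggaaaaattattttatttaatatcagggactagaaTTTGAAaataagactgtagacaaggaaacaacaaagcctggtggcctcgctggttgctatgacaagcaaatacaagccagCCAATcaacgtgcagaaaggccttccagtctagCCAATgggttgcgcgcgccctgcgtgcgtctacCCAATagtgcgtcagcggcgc
Nuf2: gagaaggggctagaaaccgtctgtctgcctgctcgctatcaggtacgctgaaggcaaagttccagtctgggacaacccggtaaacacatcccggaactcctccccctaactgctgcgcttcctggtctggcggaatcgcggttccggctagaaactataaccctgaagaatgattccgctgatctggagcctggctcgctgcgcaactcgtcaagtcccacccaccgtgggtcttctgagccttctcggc
Ndc80: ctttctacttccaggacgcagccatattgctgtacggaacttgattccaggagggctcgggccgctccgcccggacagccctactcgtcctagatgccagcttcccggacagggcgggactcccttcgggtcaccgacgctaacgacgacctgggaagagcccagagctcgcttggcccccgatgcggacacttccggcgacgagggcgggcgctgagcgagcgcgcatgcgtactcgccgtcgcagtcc
The windows lie at chr2:164769679-164769928 (plus strand, Ube2c), chr7:135716380-135716629 (minus strand, Mki67), chr10:69352913-69353162 (minus strand, Cdk1), chr9:70421555-70421804 (minus strand, Ccnb2), chr1:169531465-169531714 (minus strand, Nuf2) and chr17:71526858-71527107 (minus strand, Ndc80). In Ube2c the first base of the TTTGAA match is 29 bases before the start and lies on the opposite strand, and at another place matches of the CCAAT motif on opposite strands overlap. The Cdk1 matches begin 71 and 15 bases, those of Mki67 116 and 98 bases and that of Ccnb2 167 bases before the start. The 14 genes with TTTGAA had a median difference on oocyte removal of -2.75, with a range from -4.64 to -0.39, and the 22 without it one of -1.97, with a range from -3.21 to -0.82. The ranges overlap, and no test was made of this split. Kif22 holds both motifs and stood at -0.39 on its brightest probe set, while Birc5 holds neither and stood at -2.86. The printed windows were picked and do not show that motif and size of fall go together. A match is a run of letters and not a shown binding site.

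CDK1 with its cyclins drives entry into mitosis. Cdk1, the kinase itself, read 9.78, 10.08 and 10.36 on the intact arrays, 7.50, 7.39 and 7.16 on the oocyte-free arrays and 10.02, 9.62 and 10.23 on the coculture arrays. With estrogen, Cdk1 read 10.22, 10.08 and 10.57 in intact complexes, 9.31, 8.68 and 8.25 in oocyte-free complexes and 9.64, 9.93 and 9.82 in cocultures. No oocyte-free value reached the lowest value of the intact or coculture arrays, and the oocyte-free arrays with estrogen lay between. Cdk1 fell by 2.72 on removal without estrogen (SE 0.24, adjusted p = 9.35e-08), which is 6.6-fold, and by 1.54 with it (SE 0.24, adjusted p = 7.31e-05). Its upstream window, printed above, holds both motifs.

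Ccna2, cyclin A2, which partners CDK2 and CDK1 from S phase into G2, read 8.68, 8.60 and 8.92 on the intact arrays, 6.19, 4.85 and 5.96 on the oocyte-free arrays and 8.63, 8.33 and 9.07 on the coculture arrays. With estrogen, Ccna2 read 8.76, 8.95 and 9.37 in intact complexes, 7.13, 7.28 and 6.44 in oocyte-free complexes and 8.76, 8.87 and 8.77 in cocultures. The cyclin B2 gene Ccnb2 read 8.62, 8.59 and 8.66 on the intact arrays, 6.27, 5.83 and 4.81 on the oocyte-free arrays and 8.28, 7.92 and 8.68 on the coculture arrays, and with estrogen 8.96, 8.98 and 9.36 in intact complexes, 7.53, 7.32 and 6.85 in oocyte-free complexes and 8.75, 8.90 and 9.03 in cocultures. In both cyclins the oocyte-free values stayed below all others, and in oocyte-free complexes the values with estrogen were above those without. The falls on removal were -3.07 for Ccna2 and -2.99 for Ccnb2 without estrogen, and -2.08 and -1.87 with it. Cdc25c, a phosphatase that activates CDK1, read 6.57, 6.17 and 6.39 on the intact arrays, 4.69, 4.48 and 4.26 on the oocyte-free arrays and 5.89, 6.24 and 6.45 on the coculture arrays. With estrogen, Cdc25c read 6.46, 6.72 and 6.79 in intact complexes, 5.42, 5.43 and 5.28 in oocyte-free complexes and 6.56, 6.63 and 6.40 in cocultures. Removal lowered it by 1.90 without and 1.28 with estrogen, with no overlap of the groups. Its oocyte-free values lay below the array medians in both treatments, so the size of the fall is uncertain. The probe set is marked x, a kind whose probes can bind other transcripts. Another read 6.20, 5.80 and 6.20 on intact and 5.02, 4.86 and 5.45 on oocyte-free arrays. With estrogen it read 6.22, 6.29 and 6.74, and 5.53, 5.26 and 4.85. With unmarked probe sets preferred, the call of Cdc25c for estrogen in oocyte-free complexes was lost.

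Foxm1, a transcription factor that drives many of the other genes here, was the exception. Its brightest probe set read 6.61, 6.44 and 6.71 on the intact arrays, 6.27, 6.31 and 6.63 on the oocyte-free arrays and 6.62, 6.57 and 6.57 on the coculture arrays. With estrogen, Foxm1 read 6.54, 6.61 and 6.58 in intact complexes, 6.22, 6.30 and 6.29 in oocyte-free complexes and 6.39, 6.50 and 6.52 in cocultures. The oocyte-free and intact values overlapped without estrogen and lay close together but apart with it, and the difference was -0.18 (SE 0.13, adjusted p = 0.268) without and -0.31 (adjusted p = 0.0746) with it, the smallest of the 45 genes in both. Foxm1 has 4 probe sets, and with every probe set tested on its own another was called lower, at -0.70 (adjusted p = 0.00057) without and -0.41 (adjusted p = 0.031) with estrogen. The remaining probe sets ranged from -0.32 to -0.07 without estrogen and were not called, with the value of -0.07 on a probe set below the filter. Among 13 tested regulators of the MuvB and MYB group, 6 were lower without estrogen, among them Mybl2, which encodes B-MYB, at -1.36 (SE 0.21, adjusted p = 5.5e-05). In that comparison 20.7% of all tested genes were called lower. Mybl2 was named after its value was seen.

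The spindle checkpoint holds back anaphase until every chromosome is attached. Bub1, a checkpoint kinase at the kinetochore, read 6.59, 7.02 and 7.12 on the intact arrays, 4.76, 4.53 and 4.66 on the oocyte-free arrays and 6.54, 6.78 and 7.29 on the coculture arrays. With estrogen, Bub1 read 7.35, 7.83 and 7.70 in intact complexes, 5.27, 5.34 and 5.68 in oocyte-free complexes and 6.48, 7.51 and 7.12 in cocultures. The oocyte-free arrays of both treatments were below all others, and the fall on removal was nearly the same size without estrogen, -2.26 (SE 0.24, adjusted p = 1.13e-06), and with it, -2.20 (SE 0.24, adjusted p = 1.97e-06). Bub1b, which encodes the inhibitor BUBR1, read 7.99, 8.15 and 7.63 on the intact arrays, 7.21, 6.70 and 5.96 on the oocyte-free arrays and 7.95, 7.10 and 8.30 on the coculture arrays. With estrogen, Bub1b read 8.05, 8.01 and 8.76 in intact complexes, 7.22, 7.22 and 7.14 in oocyte-free complexes and 7.90, 7.78 and 8.34 in cocultures. The intact and coculture arrays were above the oocyte-free ones except for the coculture array at 7.10, and the fall was -1.30 without estrogen and -1.08 with it, the latter not called without replicate 3 of the intact complexes with estrogen (-0.84, adjusted p = 0.080).

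Mad2l1, the MAD2 inhibitor of the anaphase promoting complex, read 8.16, 8.95 and 9.03 on the intact arrays, 6.85, 7.25 and 7.56 on the oocyte-free arrays and 8.63, 8.59 and 9.25 on the coculture arrays. With estrogen, Mad2l1 read 9.25, 9.33 and 9.88 in intact complexes, 8.08, 7.69 and 7.71 in oocyte-free complexes and 8.42, 9.21 and 9.10 in cocultures. It was among the 5 genes that fell more with estrogen, -1.66, than without, -1.49, and that difference was not called (interaction adjusted p = 0.907). The kinase gene Ttk, also known as Mps1, read 6.63, 5.81 and 6.89 on the intact arrays, 4.61, 4.22 and 4.32 on the oocyte-free arrays and 6.45, 6.55 and 6.63 on the coculture arrays, and with estrogen 6.89, 7.46 and 7.49 in intact complexes, 5.73, 5.36 and 5.53 in oocyte-free complexes and 6.08, 7.20 and 6.56 in cocultures. Removal lowered Ttk by 2.06 and 1.74. The 4 checkpoint genes thus fell in both treatments, with medians of -1.78 and -1.70, and all 4 rose on adding oocytes without estrogen, with a median of 1.88. For all tested genes, 20.7% and 17.3% were called lower on removal, and 19.8% higher on that addition. With estrogen 3 of 4 rose on adding oocytes, where 14.2% of all tested genes were called higher. The fourth was Bub1b at 0.81 (SE 0.31, adjusted p = 0.0668). Without estrogen the call of Bub1b on adding oocytes was lost without coculture replicate 3 (0.90, adjusted p = 0.053), and with estrogen that of Ttk without replicate 2 of the cocultures with estrogen (0.78, adjusted p = 0.053).

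**Figure D3:**
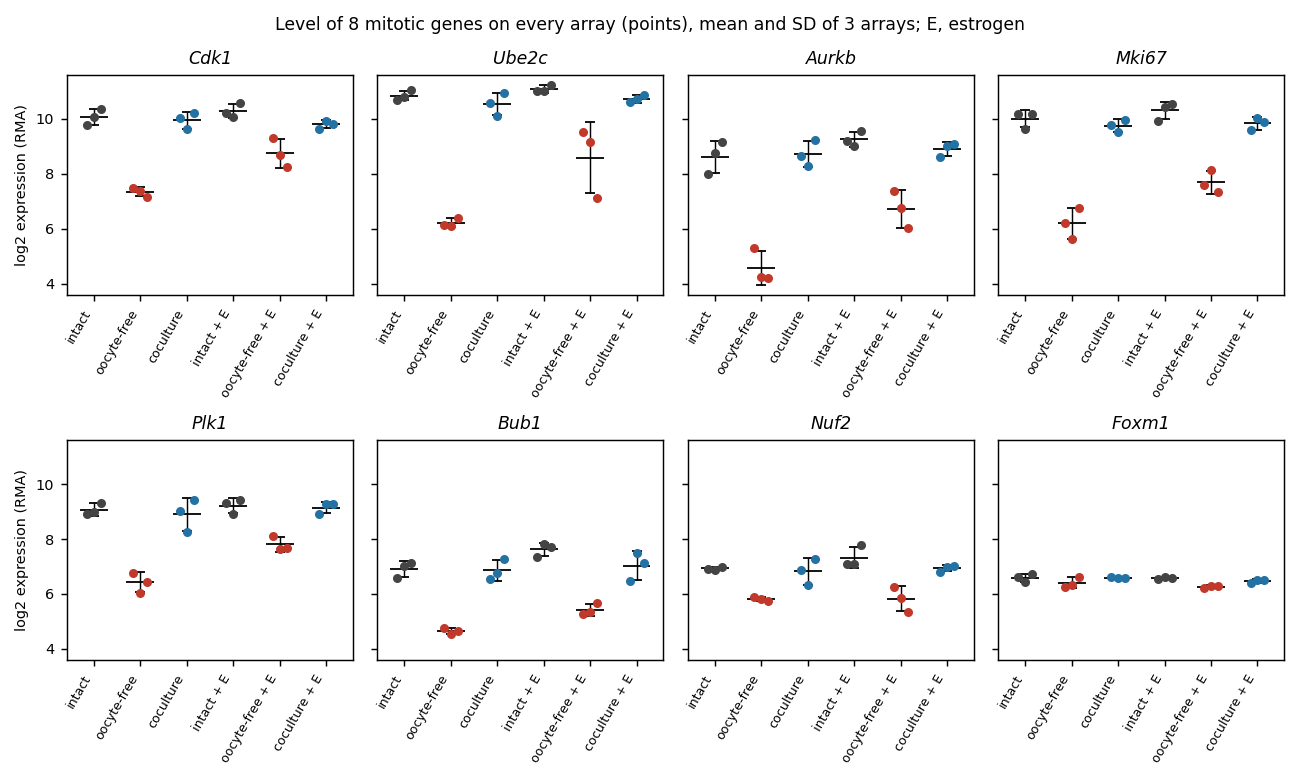
Log2 expression of 8 mitotic genes on each array (points) in the 6 groups, with the mean and SD of 3 arrays (bars); E marks estrogen, and all panels share the vertical axis. Ube2c falls from 10.70 to 11.05 on intact arrays to 6.11 to 6.40 on oocyte-free arrays, while the Foxm1 values of these groups overlap.

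The mitotic kinases and the chromosomal passenger complex were lower on removal for all 8 genes in both treatments, with medians of -2.44 and -1.44. The shares of all tested genes called lower were 20.7% without and 17.3% with estrogen. Plk1, the Polo kinase of centrosome maturation and mitotic exit, read 8.90, 8.99 and 9.33 on the intact arrays, 6.78, 6.05 and 6.43 on the oocyte-free arrays and 9.02, 8.26 and 9.42 on the coculture arrays. With estrogen, Plk1 read 9.32, 8.90 and 9.42 in intact complexes, 8.11, 7.63 and 7.67 in oocyte-free complexes and 8.90, 9.27 and 9.26 in cocultures. Its groups did not overlap on removal, which lowered it by 2.65 without and 1.41 with estrogen. Aurka, the Aurora kinase of the spindle poles, read 7.63, 7.81 and 8.21 on the intact arrays, 5.25, 5.02 and 5.57 on the oocyte-free arrays and 7.87, 7.06 and 8.03 on the coculture arrays. With estrogen, Aurka read 8.11, 7.84 and 8.43 in intact complexes, 6.97, 6.30 and 5.86 in oocyte-free complexes and 7.33, 7.95 and 7.82 in cocultures. Aurka fell by 2.60 and 1.75. Tpx2, which activates Aurora A on the spindle, fell by 1.74 and 1.46, and the centrosomal kinase gene Nek2 by 1.12 and 1.16. Of the 4 probe sets of Nek2, 1 that lay below the filter was called higher without estrogen (0.29, adjusted p = 0.032), as no other of the 102 was, while the other 3 of Nek2 were called lower.

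Aurkb, the kinase of the chromosomal passenger complex, was listed at 7.99, 8.74 and 9.14 on the intact arrays, 5.30, 4.24 and 4.20 on the oocyte-free arrays and 8.66, 8.30 and 9.23 on the coculture arrays. With estrogen, Aurkb read 9.21, 9.00 and 9.56 in intact complexes, 7.38, 6.74 and 6.03 in oocyte-free complexes and 8.60, 9.00 and 9.08 in cocultures. The difference was -4.04 (SE 0.36, adjusted p = 1.33e-07) without estrogen and -2.54 (SE 0.36, adjusted p = 3.53e-05) with it. The oocyte-free values without estrogen lie below the medians of their arrays, so the size of the fall is uncertain, and a further Aurkb probe set gave -3.02 and -2.20. Of the 45 genes, 15 had all 3 oocyte-free values without estrogen below the array medians, and 2 had them with estrogen. Birc5, survivin, which places the complex at centromeres, read 8.01, 7.70 and 8.30 on the intact arrays, 5.12, 5.47 and 4.85 on the oocyte-free arrays and 7.51, 7.56 and 7.87 on the coculture arrays. With estrogen, Birc5 read 8.15, 7.92 and 8.17 in intact complexes, 6.28, 6.19 and 5.82 in oocyte-free complexes and 7.37, 7.65 and 7.62 in cocultures. It fell by 2.86 and 1.98, with an SE of 0.19. The scaffold gene Incenp read 11.47, 11.27 and 11.57 on the intact arrays, 9.94, 10.18 and 9.07 on the oocyte-free arrays and 11.05, 11.14 and 11.23 on the coculture arrays, and with estrogen 11.31, 11.36 and 11.73 in intact complexes, 10.38, 10.57 and 10.25 in oocyte-free complexes and 11.18, 11.28 and 11.09 in cocultures. Incenp fell by 1.71 and 1.07, and among its 5 probe sets 2 that lay below the filter showed -0.03 and -0.11 without estrogen and were not called. Cdca8, borealin, the fourth subunit of the complex, fell by 2.28 and 1.36.

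The centromere and kinetochore genes, which tie chromosomes to microtubules, were lower for all 7 members on removal without and with estrogen, with medians of -1.98 and -1.46. In these comparisons 20.7% and 17.3% of all tested genes were called lower. Cenpa, the histone H3 variant that marks the centromere, read 11.06, 10.88 and 11.21 on the intact arrays, 9.00, 8.67 and 7.76 on the oocyte-free arrays and 10.35, 10.93 and 10.92 on the coculture arrays. With estrogen, Cenpa read 11.06, 11.06 and 11.21 in intact complexes, 9.70, 9.74 and 9.50 in oocyte-free complexes and 10.92, 10.81 and 10.72 in cocultures. It fell by 2.57 and 1.46. Cenpe, a kinetochore kinesin, read 7.55, 7.52 and 7.57 on the intact arrays, 5.46, 5.56 and 5.68 on the oocyte-free arrays and 7.79, 6.98 and 8.08 on the coculture arrays, and with estrogen 8.00, 8.02 and 8.65 in intact complexes, 7.31, 6.98 and 6.13 in oocyte-free complexes and 7.85, 7.83 and 8.10 in cocultures. Cenpe fell by 1.98 and 1.42, and its oocyte-free arrays with estrogen spread from 6.13 to 7.31. Cenpf, a large kinetochore protein of G2 and mitosis, fell by 2.58 and 1.94.

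The NDC80 complex, the main microtubule anchor of the kinetochore, has 4 subunits, all measured here, and they differed in size of change. Ndc80 read 5.37, 5.62 and 5.76 on the intact arrays, 4.65, 4.43 and 4.78 on the oocyte-free arrays and 5.52, 5.40 and 5.56 on the coculture arrays. With estrogen, Ndc80 read 5.73, 5.75 and 6.07 in intact complexes, 4.68, 4.74 and 4.81 in oocyte-free complexes and 4.98, 5.76 and 5.28 in cocultures. Its groups did not overlap on removal, yet the falls of -0.96 and -1.11 were small for this list. The oocyte-free values of Ndc80 lay below the array medians in both treatments, and its intact values without estrogen lay close to them. The size of its fall is therefore uncertain. Nuf2, its coiled-coil partner, fell by 1.12 without and 1.50 with estrogen. Spc24, a subunit of the inner end, read 10.18, 9.89 and 10.09 on the intact arrays, 8.13, 8.64 and 7.84 on the oocyte-free arrays and 9.15, 9.79 and 9.75 on the coculture arrays, and with estrogen 9.42, 9.42 and 9.63 in intact complexes, 8.10, 8.23 and 7.82 in oocyte-free complexes and 9.09, 8.90 and 8.80 in cocultures. Spc24 fell by 1.85 and 1.44. Its partner Spc25 fell by 3.21 (SE 0.23, adjusted p = 1.21e-08) and 2.07 (SE 0.23, adjusted p = 2.58e-06), the largest falls of the complex. Ndc80 and Nuf2 have the windows printed above that hold neither motif, as does that of Birc5, which fell more.

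The 6 kinesin motors were all lower on removal in both treatments, with medians of -1.65 and -1.05, where 20.7% and 17.3% of all tested genes were. Kif11, Eg5, which pushes the spindle poles apart, read 6.85, 7.03 and 6.50 on the intact arrays, 5.15, 4.90 and 5.28 on the oocyte-free arrays and 6.68, 6.62 and 6.91 on the coculture arrays. With estrogen, Kif11 read 6.71, 6.58 and 7.20 in intact complexes, 6.05, 5.62 and 5.86 in oocyte-free complexes and 6.59, 7.16 and 6.69 in cocultures. It fell by 1.68 and 0.99 on its brightest probe set. Another overlapped without estrogen, at 5.93, 5.36 and 6.52 on intact and 5.76, 5.81 and 5.40 on oocyte-free arrays. With estrogen that probe set read 5.82, 5.85 and 6.06, and 5.68, 6.45 and 5.86. On the remaining probe set the oocyte-free values lay below the intact ones in both treatments. With the mean of all probe sets Kif11 was not called for estrogen in oocyte-free complexes or for added oocytes with estrogen. Kif20a, a motor of the central spindle, read 6.58, 7.00 and 7.26 on the intact arrays, 4.64, 4.82 and 4.59 on the oocyte-free arrays and 7.27, 5.96 and 7.62 on the coculture arrays, and with estrogen 7.63, 7.11 and 7.87 in intact complexes, 6.27, 5.99 and 5.55 in oocyte-free complexes and 7.10, 7.23 and 7.58 in cocultures. The low coculture value of 5.96 was that of replicate 2, the array with the higher oocyte markers and the second narrowest range. Kif20a fell by 2.26 and 1.60. Kif23, a subunit of centralspindlin, read 7.77, 7.48 and 7.71 on the intact arrays, 6.05, 6.27 and 5.82 on the oocyte-free arrays and 7.44, 7.49 and 7.74 on the coculture arrays. With estrogen, Kif23 read 7.80, 7.67 and 8.03 in intact complexes, 6.44, 6.95 and 6.39 in oocyte-free complexes and 7.34, 7.82 and 7.53 in cocultures, and it fell by 1.61 and 1.24. The chromokinesin gene Kif4 fell by 1.19 and 1.12.

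Kif22 and Kif2c, a chromokinesin and a microtubule depolymerase, also depend on the probe set. Values of Aurkb, Cdc20, Cdc25c and Incenp, among others, also came from probe sets marked x. Kif22 fell by 0.39 (adjusted p = 0.0172) and 0.35 (adjusted p = 0.0398) on a probe set marked x, a kind whose probes can bind other transcripts. Its other probe sets gave -1.91 and -1.19 without estrogen. The call of Kif22 without estrogen was lost without intact replicate 1 (-0.36, adjusted p = 0.064), and that with estrogen without any of 7 arrays in turn, at adjusted p-values up to 0.139. Kif2c fell by 2.64 and 0.98 on a probe set of the same kind. On its other probe sets the difference without estrogen was -0.64, -0.58 and -0.05, so that the size of its change is uncertain.

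The genes of spindle bundling and cytokinesis were lower for all 5 members, with medians of -1.83 and -1.08, where 20.7% and 17.3% of all tested genes were. Nusap1, which bundles spindle microtubules near chromosomes, read 7.20, 7.29 and 7.25 on the intact arrays, 5.28, 5.19 and 5.37 on the oocyte-free arrays and 7.42, 6.38 and 7.88 on the coculture arrays. With estrogen, Nusap1 read 7.26, 7.61 and 8.15 in intact complexes, 6.73, 6.45 and 6.59 in oocyte-free complexes and 7.04, 8.02 and 7.56 in cocultures. The falls were -1.97 and -1.08, and the call with estrogen was lost without replicate 3 of the intact complexes with estrogen (-0.85, adjusted p = 0.071). Prc1, which crosslinks the midzone, read 8.95, 8.93 and 9.00 on the intact arrays, 5.81, 6.52 and 6.28 on the oocyte-free arrays and 9.11, 8.38 and 9.14 on the coculture arrays, and with estrogen 9.04, 8.92 and 9.67 in intact complexes, 7.86, 7.54 and 6.70 in oocyte-free complexes and 8.83, 9.00 and 9.08 in cocultures. Prc1 fell the most of these, by 2.76 (SE 0.28, adjusted p = 5.21e-07) and 1.84 (SE 0.28, adjusted p = 6.28e-05). Anln, anillin, the scaffold of the contractile ring, read 7.47, 8.11 and 7.72 on the intact arrays, 6.24, 6.26 and 6.32 on the oocyte-free arrays and 7.88, 7.07 and 8.12 on the coculture arrays. With estrogen, Anln read 7.61, 7.68 and 8.17 in intact complexes, 6.78, 6.76 and 6.97 in oocyte-free complexes and 7.35, 7.64 and 7.65 in cocultures, and it fell by 1.49 and 0.98. Racgap1, the partner of Kif23 in centralspindlin, fell by 1.83 and 1.21. The RhoA exchange factor gene Ect2 fell by 1.41 and 0.80, with the call under estrogen lost without any of 4 arrays of the compared groups in turn, at adjusted p-values up to 0.143 (-0.61, without replicate 3 of the intact complexes with estrogen).

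The chromosome structure genes had the largest median fall of the 8 roles, -3.02 without and -1.86 with estrogen, with all 6 lower in both. The share of all tested genes called lower was 20.7% without estrogen and 17.3% with it. Mki67, the Ki-67 protein that coats mitotic chromosomes and is used as a marker of dividing cells, read 10.16, 9.64 and 10.19 on the intact arrays, 6.22, 5.61 and 6.74 on the oocyte-free arrays and 9.78, 9.52 and 9.97 on the coculture arrays. With estrogen, Mki67 read 9.94, 10.44 and 10.54 in intact complexes, 7.58, 8.15 and 7.32 in oocyte-free complexes and 9.58, 10.03 and 9.89 in cocultures. No oocyte-free array came within 1 log2 unit of an intact one, and the fall was -3.81 (SE 0.27, adjusted p = 8.81e-09) without and -2.62 (SE 0.27, adjusted p = 8.6e-07) with estrogen, the latter the largest of the 45. Top2a, topoisomerase II alpha, which untangles sister chromatids, read 10.50, 10.38 and 10.45 on the intact arrays, 7.89, 7.93 and 7.18 on the oocyte-free arrays and 10.40, 9.75 and 10.65 on the coculture arrays, and with estrogen 10.58, 10.69 and 11.06 in intact complexes, 9.11, 9.01 and 8.56 in oocyte-free complexes and 10.00, 10.57 and 10.48 in cocultures. Top2a fell by 2.78 and 1.88.

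Condensin, which folds chromosomes for mitosis, was measured through 4 subunits. Smc4, a core ATPase, read 10.01, 9.54 and 10.07 on the intact arrays, 7.61, 7.48 and 7.88 on the oocyte-free arrays and 9.47, 9.40 and 9.53 on the coculture arrays. With estrogen, Smc4 read 9.55, 10.12 and 9.95 in intact complexes, 9.13, 9.71 and 8.65 in oocyte-free complexes and 9.52, 10.27 and 9.84 in cocultures. Its oocyte-free value of 9.71 with estrogen lay among the intact values, and the fall was -2.22 (SE 0.24, adjusted p = 1.67e-06) without but -0.71 (SE 0.24, adjusted p = 0.0358) with estrogen. The latter call was lost without replicate 1 or 3 of the oocyte-free group with estrogen (-0.69 and -0.45, adjusted p = 0.080 and 0.198) and without replicate 2 or 3 of the intact one (-0.59 and -0.67, adjusted p = 0.135 and 0.0986). Its partner Smc2 fell by 3.52 and 1.83, with an SE of 0.45, the widest of the 45. Ncapd2, a regulatory subunit of condensin I, read 8.01, 8.18 and 8.36 on the intact arrays, 6.71, 6.43 and 5.53 on the oocyte-free arrays and 8.07, 7.52 and 8.58 on the coculture arrays, and with estrogen 8.53, 8.46 and 8.80 in intact complexes, 7.51, 7.18 and 7.24 in oocyte-free complexes and 8.16, 8.24 and 8.66 in cocultures. Ncapd2 fell by 1.96 and 1.29, and Ncapg, another such subunit, by 3.27 and 2.30.

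Anaphase is started by the anaphase promoting complex, which marks securin and the B cyclins for destruction. Cdc20, its activator and the target of the checkpoint, read 11.42, 11.23 and 11.54 on the intact arrays, 10.05, 9.50 and 8.92 on the oocyte-free arrays and 10.92, 11.17 and 11.45 on the coculture arrays. With estrogen, Cdc20 read 11.45, 11.37 and 11.75 in intact complexes, 10.66, 10.63 and 10.29 in oocyte-free complexes and 11.54, 11.27 and 11.40 in cocultures, and it fell by 1.91 and 1.00. Ube2c, the ubiquitin-conjugating enzyme that serves this complex, had the largest fall. Measured by a single probe set, it read 10.70, 10.80 and 11.05 on the intact arrays, 6.13, 6.11 and 6.40 on the oocyte-free arrays and 10.59, 10.11 and 10.93 on the coculture arrays. With estrogen, Ube2c read 11.00, 11.02 and 11.25 in intact complexes, 9.51, 9.14 and 7.10 in oocyte-free complexes and 10.60, 10.71 and 10.88 in cocultures. The fall was -4.64 (SE 0.40, adjusted p = 9.45e-08) without estrogen, 24.9-fold, and -2.51 (SE 0.40, adjusted p = 0.000122) with it, 5.68-fold. On the oocyte-free arrays with estrogen it spread over 2.41 log2 units, with the array of the conflicting label at the top and the array of another series, replicate 3, at the bottom.

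Espl1, separase, which cuts cohesin, read 7.70, 7.79 and 7.82 on the intact arrays, 5.51, 4.41 and 4.87 on the oocyte-free arrays and 7.47, 7.10 and 7.61 on the coculture arrays. With estrogen, Espl1 read 7.70, 7.64 and 8.08 in intact complexes, 6.34, 6.27 and 6.62 in oocyte-free complexes and 7.03, 7.71 and 7.43 in cocultures. It fell by 2.84 without and 1.40 with estrogen. Pttg1, securin, the inhibitor of separase, read 11.67, 11.41 and 11.54 on the intact arrays, 10.54, 10.59 and 11.03 on the oocyte-free arrays and 11.29, 11.58 and 11.42 on the coculture arrays, and with estrogen 11.29, 11.66 and 11.53 in intact complexes, 11.19, 11.53 and 10.28 in oocyte-free complexes and 11.60, 11.31 and 11.11 in cocultures. Pttg1 fell by 0.82 (adjusted p = 0.0123) without estrogen. With estrogen its groups overlapped and the difference of -0.49 (SE 0.24) was not called (adjusted p = 0.14). Another Pttg1 probe set gave -1.63 and -1.11, called in both.

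The rise on adding oocytes was largest for Ube2c without estrogen, 4.33 (SE 0.40, adjusted p = 2.77e-07), and for Aurkb with it, 2.18 (SE 0.36, adjusted p = 0.000221). Mki67 rose by 3.57 and 2.15, Cdk1 by 2.61 and 1.05, Plk1 by 2.48 and 1.34 and Ccnb2 by 2.66 and 1.66. The smallest difference was again that of Foxm1, 0.18 and 0.20, not called in either. Kif22 was not called either, at 0.25 and 0.29, and with estrogen neither were Bub1b, Ect2 (0.63) and Pttg1 (0.34). The call of Pttg1 without estrogen (0.71, adjusted p = 0.0317) was lost without any of 4 arrays in turn, at adjusted p-values from 0.071 to 0.0998. With estrogen the count without 1 array ranged from 33 to 42, and the calls of Anln, Nusap1, Smc2 and Smc4 were each lost without at least 3 of the arrays. For Smc2 the rise of 1.46 became 0.80 (adjusted p = 0.156) without replicate 3 of the oocyte-free group with estrogen.

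Estrogen raised 28 of the 45 genes in oocyte-free complexes, where 6.02% of all tested genes were called higher. The median difference was 1.09, against 0.00 for all genes, 24 genes rose at least 2-fold, and in 35 of the 45 genes the groups did not overlap, as in 22.5% of all genes. Without replicate 1 of the oocyte-free group with estrogen, the array of the conflicting label, the count was 17, and it was also 17 with the narrow-range oocyte-free array left out as well. It was 17 with the array series as a term and 11 when the 6 arrays were fitted alone. Of the 28 calls, 7 were kept in every alternative run. The only array series that holds both groups has 1 array with and 2 without estrogen, and there 41 of 45 genes were higher, with a median of 0.70 and 10 of them at least 2-fold.

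By role the count was 6 of 6 for chromosome structure, 4 of 5 for CDK1 and cyclins, 3 of 4 for anaphase promotion, 5 of 8 for the kinases and passenger complex, 4 of 7 for the kinetochore, 3 of 6 for the kinesins, 2 of 5 for bundling and cytokinesis and 1 of 4 for the checkpoint. Of all tested genes, 6.02% were called higher. Ube2c rose the most, by 2.37 (SE 0.40, adjusted p = 0.00121), followed by Aurkb with 2.14, Kif2c with 1.96 and Smc2 with 1.85. The Kif2c rise was seen on its brightest probe set, while another was called lower at -0.43. Cdk1 rose by 1.40 (SE 0.24, adjusted p = 0.00117), Ccnb2 by 1.60, Mki67 by 1.49, Smc4 by 1.51 and Espl1 by 1.48. Within the series that holds both groups the differences were 0.98 for Ube2c, 1.26 for Aurkb, 0.81 for Cdk1 and 1.41 for Mki67.

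The 17 genes not called were Anln, Bub1, Bub1b, Ect2, Foxm1, Incenp, Kif22, Kif23, Kif4, Mad2l1, Ndc80, Nek2, Nuf2, Pttg1, Racgap1, Spc24 and Tpx2. Their differences ranged from -0.15 for Spc24 to 0.79 for Racgap1. The smallest was that of Nuf2, 0.01 (SE 0.24, 95% interval from -0.50 to 0.52), while its complex partner Spc25 rose by 1.44 (SE 0.23, adjusted p = 0.000835). The difference between the subunits was not tested. The TTTGAA group of promoters had a median of 1.42 and the group without one of 0.87, with overlapping ranges. The calls of Aurka, Ccna2, Cenpe, Kif11, Kif20a, Ncapd2, Ncapg, Nusap1, Prc1, Smc2 and Ttk were lost without the array of the conflicting label, at differences from 0.63 for Kif11 to 1.62 for Smc2 and adjusted p-values from 0.056 to 0.176. On that array 2 genes called higher with estrogen in all 3 kinds of culture, Slc38a3 and Npr2, read 10.04 and 10.39. They read 6.53 to 6.95 and 8.63 to 8.97 on the oocyte-free arrays without estrogen and 9.55 to 9.92 and 9.97 to 10.81 on the other oocyte-free arrays with it. The calls of these genes counted that array as one with estrogen. The values are therefore no independent check of its label.

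**Figure D4:**
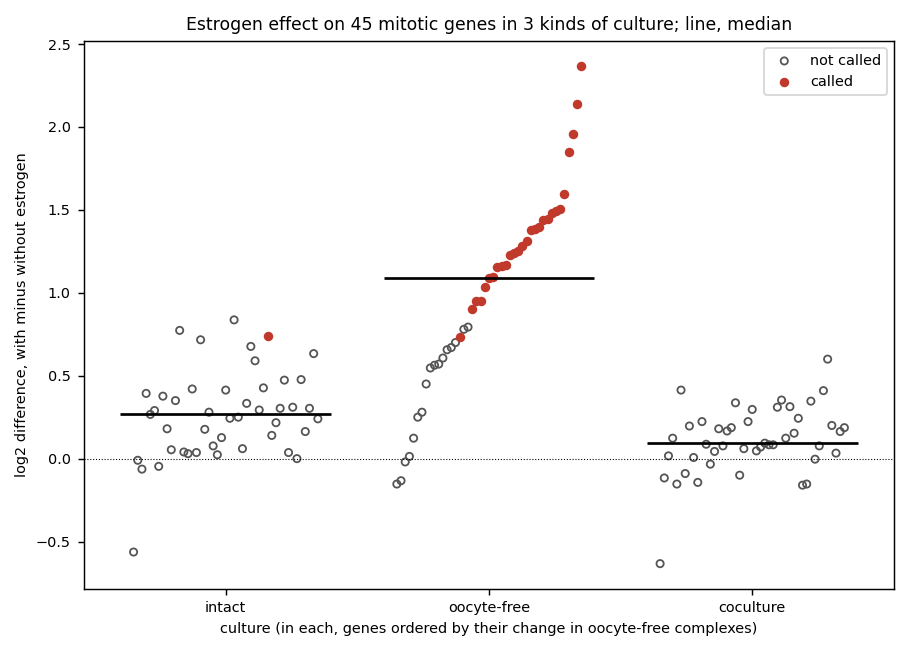
Log2 difference with minus without estrogen for the 45 mitotic genes in intact complexes, oocyte-free complexes and cocultures; filled points were called by limma, and the black line is the median (0.27, 1.09 and 0.09). The genes stand in the same order in each culture, that of their change in oocyte-free complexes, where 28 were called, against 1 and 0.

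In intact complexes estrogen changed 1 gene, Cenpf, where 3.45% of all tested genes were called higher. Cenpf rose by 0.74 (SE 0.20, adjusted p = 0.0339), and the call was lost without intact replicate 1 or 2 (0.74 and 0.63, adjusted p = 0.099 and 0.129) and without replicate 2 or 3 of the group with estrogen (0.76 and 0.60, adjusted p = 0.083 and 0.193). The median of the 45 genes was 0.27, against 0.03 for all genes, and with each array centred on its median the value for all genes was -0.09. The largest difference was that of Ttk, 0.84 (adjusted p = 0.0885), and the smallest that of Smc4, 0.00. Spc24 stood at -0.56 (adjusted p = 0.125). In cocultures 0 of 45 genes were called by limma, where 4.65% of all genes were called in either direction, and 2 passed an unadjusted p under 0.05, as did 16.1% of all genes. The median was 0.09, the largest difference was that of Spc24, -0.63 (adjusted p = 0.0933), and Espl1 had the smallest.

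Whether the estrogen effect differs between cultures was tested gene by gene. The interaction with oocyte removal was called for 4 genes, all more raised by estrogen in oocyte-free than in intact complexes, where 1.79% of all tested genes were called in that direction. They were Ube2c at 2.13 (SE 0.57, adjusted p = 0.0496), Kif2c at 1.66 (SE 0.30, adjusted p = 0.00334), Smc4 at 1.51 (SE 0.35, adjusted p = 0.0202) and Espl1 at 1.44 (SE 0.33, adjusted p = 0.0211). The interaction with added oocytes was called for 8 genes, all less raised in cocultures than in oocyte-free complexes, where 1.89% of all genes were called in that direction. They were Ube2c at -2.18, Aurkb at -1.97, Kif2c at -1.93, Spc25 at -1.59, Cdk1 at -1.56, Espl1 at -1.48, Cenpf at -1.23 and Birc5 at -1.05, with adjusted p-values from 0.0012 to 0.047. Both interactions use the same oocyte-free arrays. Nek2 had the smallest value of the first, -0.04, and Foxm1 of the second, 0.02. Without 1 array the counts ranged from 1 to 11 and from 3 to 14, and leaving out an array ended at least 1 of these calls in each interaction, except for coculture replicate 2 and replicate 3 of the oocyte-free group with estrogen. The Kif2c interaction was 0.16 on a probe set not marked for cross-binding, against -1.93 here.

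Other genes of the same machinery were read beside them. Of 148 further pathway genes listed beside the 46, 136 were tested, and on removal without estrogen 75 were lower and 5 higher, with a median of -0.61, where 20.7% of all tested genes were called lower. With estrogen 57 were lower and 5 higher, with a median of -0.42, where 17.3% of all genes were lower. Over all 34945 probe sets of 1 symbol, with no filter, 10.8% were called higher on removal without estrogen and 7.63% with it. On adding oocytes 69 rose and 4 fell without estrogen, where 19.8% of all genes were higher, and 46 rose and 5 fell with it, where 14.2% were higher. Over the same probe sets, 8.09% were called lower on addition without estrogen and 5.81% with it. The largest falls on removal without estrogen were those of Cdca5, sororin, which protects cohesin (-3.44), Cdca3, a trigger of mitotic entry (-3.19), and the centromere gene Cenph (-2.91). With estrogen they were those of Cenph (-2.61), the mitotic kinase gene Pbk (-2.43) and Cenpk (-2.40), another centromere gene. The largest rises on adding oocytes were those of Cdca5 (3.02), the midbody gene Cep55 (2.87) and the kinase gene Melk (2.81) without estrogen, and of Pbk (1.98), Cdca5 (1.94) and Cenph (1.93) with it.

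Genes that went against the 45 on removal were Dync1h1, the dynein heavy chain (1.05 without and 0.75 with estrogen), Numa1, which links dynein to the spindle poles (0.95 and 0.79), and the cohesin regulator gene Pds5b (1.00 and 0.99). Anapc4 (0.65) and Nek9 (0.50) rose in the comparison without estrogen, and Rock1 (0.69) and Anapc16 (0.48) in that with it. On adding oocytes Dync1h1 (-1.02 and -0.55) and Pds5b (-0.86 and -1.02) fell in both treatments, Anapc4 (-0.49) and Numa1 (-0.49) without estrogen, and Anapc16 (-0.63), Rock1 (-0.61) and Stmn1 (-0.44) with it. Dync1h1 and Rock1 also serve cells that are not dividing. By group, and where 20.7% of all tested genes were called lower, of the other checkpoint genes 7 of 10 were lower on removal without estrogen, of the other kinetochore genes 16 of 23, of the other mitotic kinases and CDK1 regulators 16 of 24, of the other spindle and motor genes 14 of 23, of the other cytokinesis genes 6 of 11, of the anaphase promoting complex 6 of 17 and of condensin and cohesin 4 of 15. No difference between these groups was tested.

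Estrogen in oocyte-free complexes raised 23 of the 136 genes, with a median of 0.30, where 6.02% of all tested genes were called higher. These were led by Cep55 (1.91), Cenpc1 (1.68) and the Aurora activator gene Bora (1.51). In intact complexes and in cocultures it raised Nek6, a mitotic kinase gene (1.51 and 1.48), and Cenpo, a centromere gene (0.96 and 0.58). Cep55 was called in both interactions (1.33 and -1.69), and Melk (-1.42) and Cdc27 (-1.28), a subunit of the anaphase promoting complex, in that with added oocytes.

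DNA replication genes, which act before mitosis, were read beside them. Of 37 tested, 36 were lower on removal in each treatment, with medians of -1.65 and -1.33, where 20.7% and 17.3% of all tested genes were called lower. On adding oocytes 33 and 32 rose, where 19.8% and 14.2% of all genes were called higher. Mcm7, of the replicative helicase, and Fen1, the flap endonuclease, had the highest mean levels of that list. Estrogen in oocyte-free complexes raised 5 of 37 replication genes, where 6.02% of all genes were called higher, with a median of 0.35, beside 28 of 45 mitotic genes with a median of 1.09. The difference between the lists was not tested.

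Markers of cell types moved with the same comparisons. All 8 cumulus genes passed the filter, and so did 10 of 11 mural granulosa genes, so passing it does not tell these 2 cell types apart. On removal without estrogen 5 of the 8 were lower, Slc38a3, Cyp51, Sqle, Pfkp and Fshr, and Foxl2 was higher. Among 10 mural granulosa genes 4 were lower, Inhbb (-4.67), Hsd17b1 (-4.24), Fst (-3.31) and Nppc (-1.91), and Kitl (4.59) and Wt1 (0.52) were higher. In this comparison 20.7% of all tested genes were called lower. Summed over the list, mural granulosa markers lay between 14.08 and 14.21 on the log2 scale on intact arrays, between 11.74 and 12.09 on oocyte-free arrays and between 14.01 and 14.33 on coculture arrays. With estrogen the ranges were 14.59 to 14.72, 11.87 to 12.54 and 14.47 to 14.73. Among 6 theca and stroma genes Dcn, decorin, was higher (4.48) and Acta2, Gli1 and Ptch1 were lower, while the collagen genes Col1a1, Col1a2 and Col3a1 stayed between 2.93 and 5.56 on every array. Summed theca and stroma markers ran from 12.28 to 12.49 on intact arrays and from 11.26 to 11.65 on oocyte-free arrays without estrogen, and from 10.21 to 10.41 and from 11.80 to 12.52 with it.

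Of the oocyte genes, Bcl2l10 was lower (-3.91) and Tle6 higher (1.25) on removal without estrogen, and Gdf9, an oocyte growth factor gene, lay between 6.61 and 7.19 in all groups. Summed oocyte markers ran from 10.12 to 10.34 on intact arrays, from 10.03 to 10.28 on oocyte-free arrays and from 10.07 to 10.65 on coculture arrays, and with estrogen from 10.27 to 10.40, from 9.64 to 9.80 and from 10.01 to 10.49. Endothelial and blood cell markers, of which 2 of 11 passed the filter, summed to values between 8.13 and 8.64 on every array. Pecam1 lay between 3.74 and 4.45 and Ptprc between 3.19 and 3.67. The part of these shifts in the mitotic genes' levels was not tested.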

How the data were processed

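The values were log2 expression levels per probe set made by the authors with Affymetrix Expression Console 1.1 and its RMA summary, per the submitters' processing notes, and deposited with 2 decimals. Per the labels' protocols, the starting RNA was amplified in consecutive rounds before hybridisation, which can change ratios between transcripts. Genes were named through the platform annotation, with symbols updated by Entrez identifier. Of the probe sets, 34945 had 1 symbol, 932 several and 9160 none, and 64 control probe sets were left out. Each gene was represented by its probe set of highest mean. A gene was tested if it lay above the array median on at least 3 of 18 arrays. A linear model over the 6 groups was fitted by limma (version 3.58.1, R 4.3.3) with moderated variances, p-values were adjusted by the Benjamini-Hochberg method over 12252 genes, and adjusted values under 0.05 were called. The number of arrays limits the precision. Members of the list, the role groups, the other pathway and marker lists and the genes named were chosen with earlier results of these data known. Individual values were given for the main genes of each role and for the largest and smallest member of each comparison, and of the other pathway genes for the largest changes in each direction. Alternatives covered the filter, the probe set rule, the scaling, array weights, array series, replicate number and each array left out. Ccnb1 was not analysed here.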

Additional observations from a re-analysis of the deposited data

Results flagged for a closer look

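The estrogen effect differed between cultures for several genes by a test of the difference itself. Against intact complexes, oocyte-free complexes responded more in Ube2c (2.13), Kif2c (1.66), Smc4 (1.51) and Espl1 (1.44), in log2 units. Against oocyte-free complexes, cocultures responded less in Ube2c (-2.18), Aurkb (-1.97), Kif2c (-1.93), Spc25 (-1.59), Cdk1 (-1.56), Espl1 (-1.48), Cenpf (-1.23) and Birc5 (-1.05). Both sets of differences use the same 6 oocyte-free arrays, among them the array whose labels conflict. Of the 4 and 8 calls, 0 and 1 were kept in every alternative run. With the conflicting array and the narrow-range array left out, Cdk1, Kif2c and Spc25 were among the 4 calls that were made with added oocytes, while Ube2c stood at -1.81 (limma adjusted p = 0.10) and Aurkb at -1.45 (adjusted p = 0.17). The Kif2c and Aurkb values rest on probe sets marked x. The other Aurkb probe set is also marked for cross-binding, so preferring unmarked probe sets could not test Aurkb. Kif2c was called in neither interaction with the mean of all probe sets or with unmarked probe sets preferred. The cause of these differences was not tested.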

How the results depend on the processing

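Oocyte removal and addition kept their counts within 1.5 times under every alternative run. Without 1 array the number of genes called was 43 to 44 and 38 to 44 for removal without and with estrogen, 41 to 43 and 33 to 42 for addition, 0 to 0 and 0 to 0 for coculture against intact, 0 to 1 for estrogen in intact complexes, 17 to 32 in oocyte-free complexes and 0 to 1 in cocultures, 1 to 11 for the interaction with removal and 3 to 14 for that with addition. Of the calls, 40 of 44 and 38 of 43 on removal and 39 of 43 and 28 of 40 on addition were kept in every alternative.

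For most alternatives in this section the share of all genes called in the same setting is not given. A changed count therefore does not show a change particular to the mitotic genes. Counts that moved further were these. Coculture against intact with estrogen gave 2 calls with array weights. Estrogen in intact complexes (1 call) gave 0 with the mean of all probe sets, a second quantile normalization, arrays centred on their median or every probe set on its own, 2 with the array series as a term, 4 on the compared groups alone or on the series of 13 arrays, and 6 with array weights. Estrogen in oocyte-free complexes (28) gave 11 on the compared groups alone, and 17 with the series term or without both doubtful oocyte-free arrays. Estrogen in cocultures (0) gave 1 with array weights or with probe sets not marked for cross-binding preferred, and 2 with every probe set on its own. The interaction with removal (4) gave 7 after quantile normalization or centring, 16 with array weights and 2 with the series term. That with addition (8) gave 3 on the compared groups alone, 26 with array weights, 4 without both doubtful arrays and 5 with every probe set on its own. The Kif2c interaction with addition changed from -1.93 to 0.16 with the probe set not marked for cross-binding. Over all genes, the share called higher and lower with estrogen in intact complexes moved from 3.45% and 2.33% to 2.58% and 3.70% after centring and to 3.10% and 3.22% after quantile normalization, and on adding oocytes without estrogen from 19.8% and 13.4% to 17.5% and 18.5% after quantile normalization. The cause was not tested. Leaving out the doubtful pair and preferring unmarked probe sets were chosen after seeing the data.

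Title numbers 1 to 6, 7 to 12 and 13 to 18 each hold 1 array of every group, and the replicate numbers follow these runs. The labels do not say whether the samples of a run are paired. Deviations of same-numbered arrays correlated from -0.33 to 0.42 over 45 pairs, and 8 of 18 arrays correlated best with their own number. Deviations from means of 3 arrays are bound to each other, so this check cannot exclude pairing. With the replicate number as a block the counts were 44, 42, 43 and 40 for removal and addition, 2, 30 and 0 for estrogen in intact complexes, oocyte-free complexes and cocultures, and 4 and 5 for the interactions. With that block Ube2c was no longer called in either interaction, nor were Aurkb and Birc5 in that with addition.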
